A study of Mus musculus with 100 samples.

Results

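Gene expression was compared between prefrontal cortex of newborn Myt1l heterozygous mice (HET) and of wild-type mice (WT), both taken on the day of birth (P0). The comparison holds 10 animals, 6 HET and 4 WT, sequenced as 16 libraries, out of 53 animals and 100 libraries in the whole series. Members were chosen by their labels for age and genotype, and the libraries of 1 animal were summed. The labels give the strain of every animal as C57BL/6J, whereas the study's methods name C57BL/6N for the zygotes and for the mice bred with the founders. HET animals had 1 copy of a Myt1l allele with a 7 bp deletion made by CRISPR/Cas9 in zygotes, and WT animals had none. A further P0 group of 6 animals homozygous for that allele (HOM) entered the same fit and is given only beside HET values. Because the allele is in the germline, every cell type of the dissected tissue carries it. The labels describe no decay of the mutant transcript and a loss of full-length protein, so the RNA level of Myt1l does not report the amount of protein.

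MYT1L is a zinc finger transcription factor of neurons that sits on many promoters of non-neuronal and progenitor genes and recruits SIN3 and histone deacetylase complexes to repress them. Its relatives MYT1 and ST18 share the same kind of zinc fingers. At birth, the mouse prefrontal cortex holds young projection neurons, arriving interneurons that were born in the ventral forebrain, the last progenitors of the ventricular zone and the first astrocytes. The striatum, whose medium spiny neurons express dopamine receptors, enkephalin and DARPP-32, lies directly beneath, so a cortical dissection can include some of it.

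The allele is shown first, because it defines the groups. The deletion removes bases 29783649 to 29783655 of chromosome 12 (mm10, plus strand), in exon 6 of the 3 protein-coding Myt1l transcripts of GENCODE vM21 that contain it. Exon 6 is the first coding exon of each, out of 25 exons. The lines below give the coding part of that exon, at chr12:29783621-29783675, 5′ to 3′, then the same stretch of the frameshift allele. They are followed by the forward primers that told the alleles apart. In the wild-type lines capitals mark the 7 deleted bases, and in the allele line they mark the 3 bases on each side of the junction.
Wild-type exon: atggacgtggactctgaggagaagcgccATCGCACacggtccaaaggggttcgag
Frameshift allele: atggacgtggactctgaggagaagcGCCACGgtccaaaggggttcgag
Wild-type forward primer: ctctgaggagaagcgccATCGCAC
Mutant forward primer: ctgaggagaagcgccacggt
The mutant primer matched the transcript only after the 7 bases were removed. Removing them left the first 10 residues as they were and changed residue 11. It then opened a stop at codon 78, in exon 9, where the wild-type reading frame runs for 1185 or 1187 codons. Counts per gene do not separate reads of the 2 alleles, so the values below are totals of both.

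Read totals were 123 to 145 Mreads in the 4 animals of sequencing batch 1 (2 WT and 2 HET, 1 library each). They were 30.8 to 38.1 Mreads in the 6 animals of batch 3 (2 WT and 4 HET, 2 libraries each). The WT animals of batch 1 (here WT-a and WT-b) were both male and those of batch 3 (WT-c and WT-d) both female, so batch and sex cannot be told apart within WT. WT values are given in the order a to d throughout. The cortical markers Neurod6 and Tbr1 were expressed in all 10 animals, with Tbr1 at 201 to 239 CPM (reads scaled to library size with TMM factors) in WT and at 167 to 229 CPM in HET. Markers of neighbouring tissue were present too: the striatal Ppp1r1b reached 154 CPM and the thalamic Tcf7l2 reached 23.4 CPM. The choroid plexus markers were low, with Ttr at 6.22 CPM or less and Folr1 at 0.288 CPM or less.

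Myt1l RNA was higher in every HET animal than in every WT animal. Myt1l (ENSMUSG00000061911.15, chr12:29528384-29923213) stood at 423, 429, 463 and 413 CPM in WT-a to WT-d. In HET it ran from 535 to 645 CPM with a median of 563, so the groups did not overlap. The HET mean of 581 ± 51 CPM (SD, n = 6) was 1.34-fold of the WT mean of 432 ± 21.5 CPM (SD, n = 4), a log2 difference of 0.43 ± 0.09 (SE). The exact 2-sided permutation p over the 10 animals was 0.00952, the smallest the 210 arrangements can give. Among all genes tested, Myt1l did not pass in edgeR's quasi-likelihood test (adjusted p = 0.153). Its difference was 0.45 within batch 1 and 0.39 within batch 3. The HOM animals, which are set against the same 4 WT animals, held 809 to 1054 CPM.

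The relatives of Myt1l did not follow it. Per exon length, the mean WT levels were 30.8 RPKM (reads scaled to exon length and library size) for Myt1l, 5.11 RPKM for Myt1 and 0.709 RPKM for St18, so Myt1l was the most abundant member. Myt1 was at 38.0, 37.0, 33.6 and 38.4 CPM in WT and at 30.7 to 45.3 CPM in HET, with a median of 35.5. The log2 difference of Myt1 was 0.01 ± 0.09, and that of St18 was −0.09 ± 0.21. The groups overlapped for both genes.

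**Figure D1:**
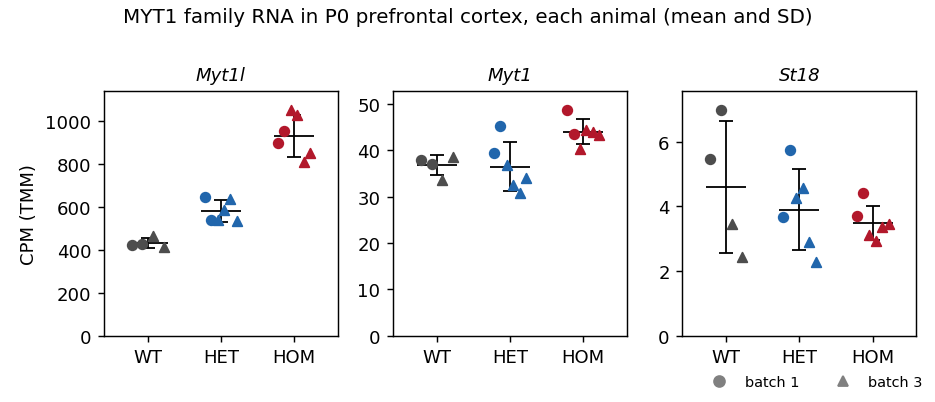
Levels (CPM, linear axis from 0) of Myt1l, Myt1 and St18 in each P0 animal, with circles for batch 1 and triangles for batch 3; the horizontal bar is the group mean and the whisker its SD. Myt1l stands at 413 to 463 CPM in WT and at 535 to 645 CPM in HET, while the WT and HET points of Myt1 and St18 overlap.

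Across the transcriptome, no single gene passed the threshold in HET. Of 18350 genes tested over the 16 P0 animals with batch as a term, 0 passed at an FDR under 0.05 after Benjamini-Hochberg adjustment (percent called 0), and the smallest adjusted p was 0.153. Even so, 3428 genes had an unadjusted p under 0.05, against the 918 that are 5% of the genes tested. Of all genes, 9.25% had such a p with a higher and 9.43% with a lower level in HET. All 6 HET animals lay above all 4 WT animals for 2.09% of genes, and below them for 2.4%. The median difference over all genes was 0.02 on the log2 scale. The result depended on the tool: DESeq2, with the same term for batch, called 216 genes higher (1.21% of those tested) and 220 lower (1.23%). Each of these 436 genes had the same sign in edgeR, and 231 of them did not overlap between the groups. Both tools used the same counts and terms, and the genes were picked on these same animals. Neither count is therefore independent support for the calls. Without WT-b, the genes at an unadjusted p under 0.05 numbered 1741. Within batch 3 alone they numbered 1274 of 18347 genes tested, and within batch 1 alone 4278 of 22225. The excess over 5% thus differed widely between the batches.

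**Figure D2:**
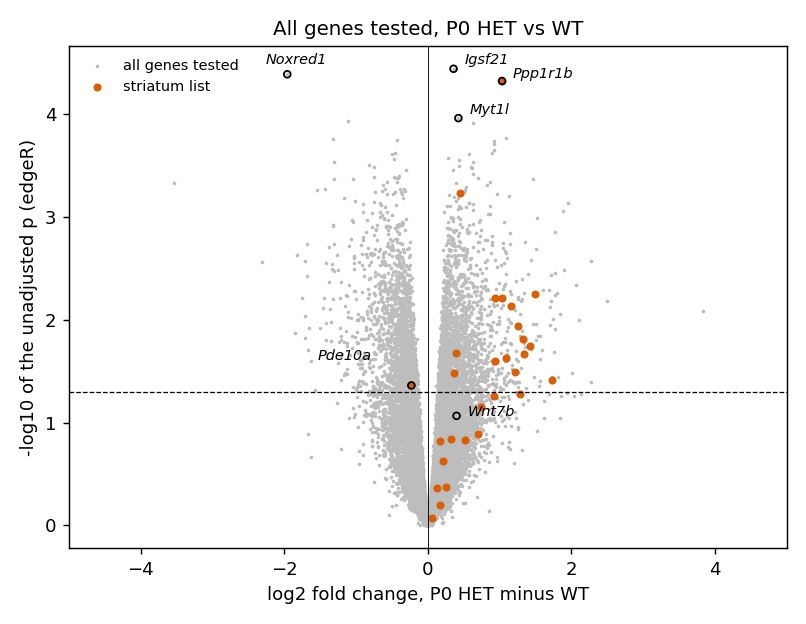
Difference between P0 HET and WT (log2, horizontal) against the −log10 of the unadjusted edgeR p (vertical) for the 18350 genes tested, with the striatum list in orange and a dashed line at p = 0.05. 28 of the 29 striatum genes lie to the right of 0, and no gene passes at the FDR threshold.

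The 10 genes with the smallest p, none of which passed the edgeR test (adjusted p = 0.153 for each), were Igsf21, Noxred1, Ppp1r1b, Myt1l, Morc2b, Tspan9, Cst6, Tnfrsf25, Ctbp2 and Kcna1. Igsf21 (ENSMUSG00000040972.8, chr4:140026846-140246784) encodes a synaptic adhesion protein that helps to organise inhibitory presynapses. It was at 53.1, 47.7, 58.6 and 51.3 CPM in WT and at 62 to 73 CPM in HET, with a median of 69.4, so every HET animal stood above every WT animal. The log2 difference was 0.36 ± 0.07 (p = 3.61e-05). HOM animals held 63.3 to 68.6 CPM of Igsf21.

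Tspan9 and Kcna1 were higher in HET with no overlap. The tetraspanin gene Tspan9 was at 53, 43.6, 54 and 60.5 CPM in WT and at 71.4 to 92.4 CPM in HET (median 82.2), a difference of 0.63 ± 0.13. The potassium channel gene Kcna1, whose product Kv1.1 limits repetitive firing, was at 4.48, 3.73, 6.65 and 6.64 CPM in WT. In HET it was at 7.42 to 13.8 CPM (median 10.1), a difference of 0.92 ± 0.2. The WT animals of batch 1 were the lower pair for Kcna1, whose difference was 1.35 within batch 1 and 0.56 within batch 3. The protease inhibitor gene Cst6 was scarce, at 0.584 to 1.05 CPM in WT and at 1.4 to 2.44 CPM in HET.

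Ctbp2 was lower in every HET animal than in every WT animal. It encodes a transcriptional corepressor and, from another start site, the synaptic ribbon protein RIBEYE. Ctbp2 (ENSMUSG00000030970.16, chr7:132987563-133124354) was at 41.1, 50.6, 39.3 and 46.1 CPM in WT and at 30.1 to 35.1 CPM in HET (median 33.0), a difference of −0.43 ± 0.09. The scarce transcripts Noxred1, Morc2b and Tnfrsf25 were also lower without overlap. Noxred1, on chromosome 12 as Myt1l is, was at 2.27, 3.43, 1.36 and 1.57 CPM in WT and at 0.203 to 0.974 CPM in HET (−1.96 ± 0.36). The differences were −1.12 ± 0.23 for Morc2b and −1.32 ± 0.28 for the death domain receptor gene Tnfrsf25. DESeq2 called all 10 genes, with adjusted p from 0.000264 for Igsf21 to 0.0066 for Tspan9.

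**Figure D3:**
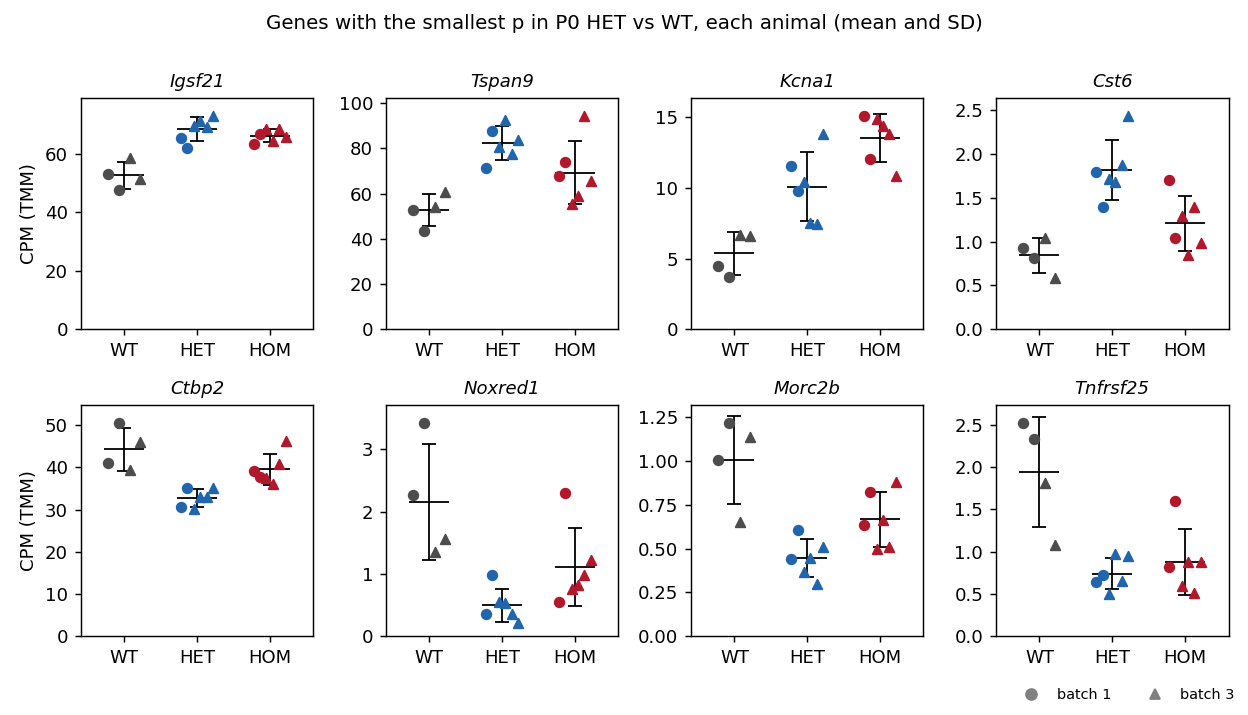
Levels (CPM, linear axes from 0) of 8 of the 10 genes with the smallest p in each P0 animal, with circles for batch 1 and triangles for batch 3; the horizontal bar is the group mean and the whisker its SD. WT and HET points are apart in all 8 panels, with HET higher in the upper row and lower in the bottom row.

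Striatal genes were higher in the HET libraries as a group, and their level varied widely among animals of each genotype. Of 32 genes on the striatum list, 29 were tested, and 28 of these were higher and 1 (Pde10a) lower in HET, with a median log2 difference of 0.92. At an unadjusted p under 0.05, 16 were higher (against 9.25% of all genes) and 1 was lower (against 9.43%). In edgeR 0 passed, and DESeq2 called 2 higher (Ppp1r1b and Gng7), against 1.21% of all genes. In bulk tissue, more cells of a type and more RNA per cell cannot be told apart.

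Among the defining markers, Ppp1r1b (ENSMUSG00000061718.12, chr11:98348404-98357796), which encodes DARPP-32, was at 39.2, 27.2, 100.4 and 75.8 CPM in WT. It was at 86.4 to 154 CPM in HET, with a median of 122, and 5 of 6 HET animals were above all WT animals. The log2 difference was 1.03 ± 0.19, and it was 0.607 or more in every other setting fitted. On a common scaling over all ages, Ppp1r1b was at 111 to 161 CPM in P0 HOM and at 25.2 to 93.4 CPM in P0 WT. All HOM animals thus lay above all WT animals for this gene, whereas their striatum scores overlapped. The adenosine receptor gene Adora2a was at 3.82, 3.88, 7.98 and 8.7 CPM in WT and at 6.8 to 17 CPM in HET (median 13.9, difference 1.03 ± 0.33). For both genes the WT animals of batch 1 were the lowest of all 10.

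The dopamine receptor genes differed from each other. Drd2, of the indirect pathway neurons, was at 1.57, 2.08, 4.27 and 7.1 CPM in WT and at 3.86 to 13.1 CPM in HET (median 9.15, difference 1.21 ± 0.52). Drd1, of the direct pathway neurons, was at 15.8, 13.8, 21.6 and 20.3 CPM in WT and at 19.6 to 22.7 CPM in HET (median 20.4, difference 0.21 ± 0.17). Drd1 had already about the same level in the WT animals of batch 3 as in HET.

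Neuropeptide and regulator genes of the striatum showed the widest spread. Penk, the enkephalin precursor, was at 4.63, 7.27, 19.2 and 22.2 CPM in WT and at 19.5 to 39.5 CPM in HET (median 34.2, difference 1.26 ± 0.45). The differences of the tachykinin gene Tac1 and the dynorphin gene Pdyn were 1.33 ± 0.50 and 0.92 ± 0.45. Isl1, a homeodomain factor of direct pathway neurons, was at 0.393, 1.19, 11.5 and 19.4 CPM in WT, and HET ran from 7.63 to 32.3 CPM (median 28.6). The retinoic acid receptor gene Rarb was at 2.07, 2.65, 8.09 and 15.9 CPM in WT and at 7.6 to 22.4 CPM in HET. For Penk, Isl1 and Rarb the WT pair of batch 1 stood below the WT pair of batch 3. Ebf1, Six3, Rxrg, Zfp503, Gpr6 and Asic4 had differences between 0.94 for Asic4 and 1.501 for Zfp503, with overlapping groups. Gng7, a G protein subunit gene of striatal signalling, was at 96.2, 93.6, 116 and 109 CPM in WT and at 125 to 150.0 CPM in HET, without overlap.

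**Figure D4:**
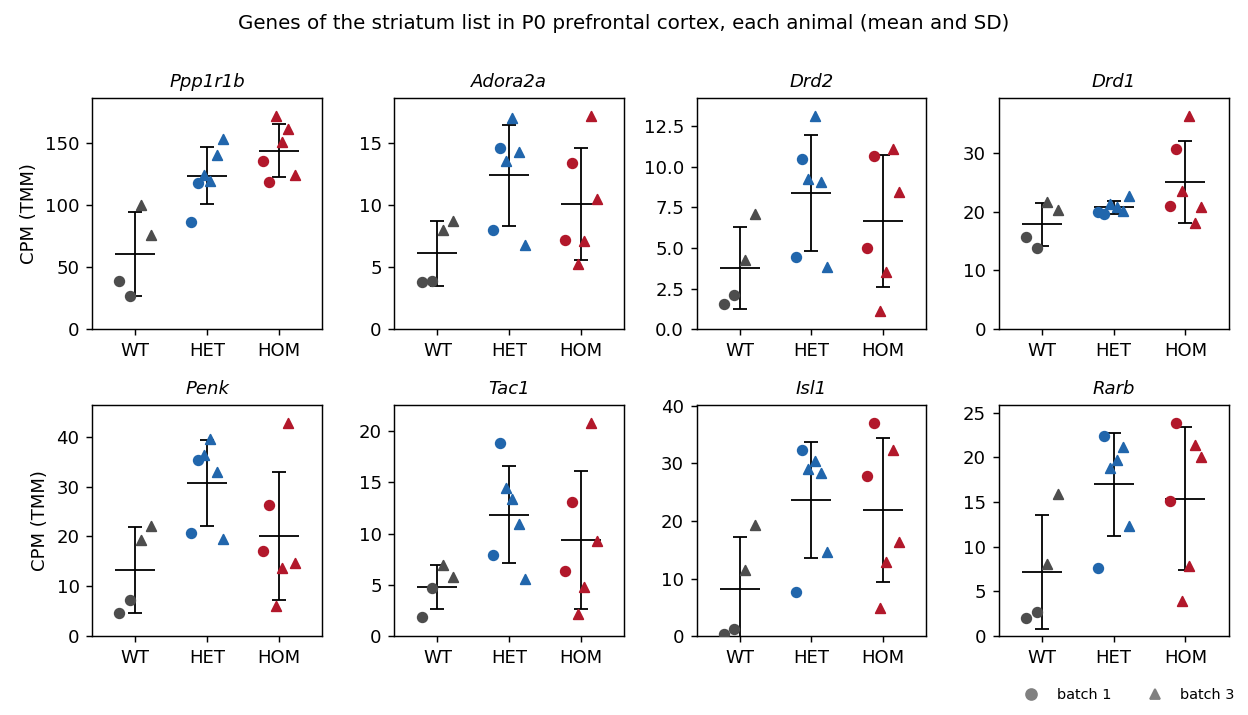
Levels (CPM, linear axes from 0) of 8 striatum list genes in each P0 animal, with circles for batch 1 and triangles for batch 3; the horizontal bar is the group mean and the whisker its SD. For Ppp1r1b, Adora2a, Penk, Isl1 and Rarb the batch 1 WT animals are the lowest of the WT and HET animals, and the HOM points spread over much of the range.

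The spread of striatal signal was summarised per animal as a score, the mean log2 CPM of the 29 genes. The score was 2.303, 2.62, 3.21 and 3.39 in WT-a to WT-d. It ran from 3.12 to 4.09 in HET, and 4 of 6 HET animals exceeded all WT animals. HOM animals ranged from 2.47 to 4.02. The list median was 1.01 within batch 1 and 0.49 within batch 3, so the WT and HET animals of batch 3 differed by less. On a common scaling over all ages the score ranged from 1.078 to 4.12 in E18.5 HET and from 3.08 to 4.48 in P22 WT. Spread was thus not limited to P0, but it followed batch in these 2 groups. In E18.5 HET the score was 3.54 to 4.12 in batch 1 and 1.078 to 2.49 in batch 3. In P22 WT it was 4.08 to 4.48 in batch 1 and 3.08 to 3.22 in batch 3. Batch 1 was the higher there, whereas it was the lower in P0 WT. Adult WT animals ranged only from 2.90 to 3.07. The part that dissection played in the HET values was not tested.

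Adding the score to the fit moved many values, and 45 genes (0.245% of those tested) then passed, 19 higher and 26 lower. The score was computed from the same libraries. The genes named here from that fit were chosen after their values were seen, and Syndig1l is itself on the striatum list. Wnt7b, a WNT ligand that deep layer neurons express, rose in that fit by 0.95 ± 0.11 (adjusted p = 0.00338), against 0.40 ± 0.22 without the score. Its levels were 222, 158, 182 and 150.1 CPM in WT and 202 to 316 CPM in HET (median 218), with overlap. Cck, the cholecystokinin gene of cortical neurons, rose by 0.81 ± 0.14 (adjusted p = 0.0364). It was at 23.3, 22.3, 30.7 and 25.2 CPM in WT and at 29.3 to 46.6 CPM in HET. The somatostatin receptor gene Sstr2 rose by 0.97 ± 0.18 (adjusted p = 0.0413), Myt1l by 0.51 ± 0.10 (adjusted p = 0.0442) and Syndig1l by 0.68 ± 0.13 (adjusted p = 0.0447). For Sstr2 a single HET animal was at 52.8 CPM, against 25.6 to 31.8 CPM in the other HET animals. Noxred1 fell by 2.52 on the log2 scale (adjusted p = 0.0364). Of the 45 genes, 33 had an unadjusted p under 0.05 without the score and 44 had the same sign there. Drd2, Tac1, Six3, Rxrg, Pdyn and Ebf1 changed sign with the score, as members of the list it was built from.

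Interneuron genes were higher in HET as a group. Of 28 tested genes of the GABAergic interneuron list, 23 were higher and 5 lower, with a median of 0.37. At an unadjusted p under 0.05, 13 were higher and 1 was lower, 0 passed in edgeR and 3 were called higher by DESeq2, against shares over all genes of 9.25% higher and 9.43% lower at such a p and 1.21% called higher by DESeq2. The mean score of the list was 4.27 to 4.46 in WT and 4.57 to 4.87 in HET, without overlap. In HOM it was 4.33 to 4.95. For most of the other gene lists the scores of WT and HET animals overlapped. Npy, the neuropeptide Y gene of somatostatin interneurons, was at 87.1, 72.6, 117 and 112 CPM in WT and at 130.1 to 187 CPM in HET (median 136, difference 0.57 ± 0.13), without overlap. Dlx2, a homeobox gene of the ventral forebrain, was at 29.2, 27.1, 22.1 and 21 CPM in WT and at 29.2 to 35 CPM in HET. Gad2, which encodes a GABA-synthesising enzyme, was at 41.1, 54.9, 53.9 and 66.6 CPM in WT and at 66.5 to 95.6 CPM in HET (difference 0.59 ± 0.17). Striatal neurons are GABAergic as well, though none of the 28 genes is on the striatum list. With the striatum score in the fit the list median was 0.13 and the difference of Gad2 was 0.24, while that of Npy was 0.68. The score was itself higher on average in HET, and the part of striatal tissue in these values was not tested.

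Genes of progenitors and new neurons gave small median differences. The radial glia list had 20 of 26 genes higher (median 0.15), the NOTCH pathway list 23 of 34 (0.14), the WNT pathway list 31 of 48 (0.11) and the list of intermediate progenitors and new neurons 13 of 21 (0.19). The WNT median was 0.00 within batch 1 and 0.22 within batch 3. For cell cycle genes the median was −0.04, with 17 of 40 higher. No gene of these lists passed in edgeR, and at an unadjusted p under 0.05 the counts higher and lower were 1 and 0, 3 and 2, 4 and 2, 6 and 1, and 0 and 2 in that order. These counts lie near or below the shares of all genes, except for the intermediate progenitor list.

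Few members of these pathways stood apart between the groups. In the NOTCH list 1 of 34 genes had all HET above all WT animals and 0 had all below. In the WNT list these counts were 0 and 1 of 48. Both are near the shares of all genes, 2.09% above and 2.4% below. Id3, a helix-loop-helix inhibitor that keeps progenitors undifferentiated, was at 17.7, 20.2, 21.9 and 21.6 CPM in WT and at 25.4 to 30.6 CPM in HET (median 28.7, difference 0.48 ± 0.13). The groups did not overlap for Id3, and DESeq2 called it (adjusted p = 0.0237). Its relative Id1 and the NOTCH effector Hes1 overlapped, at 0.29 ± 0.19 and 0.23 ± 0.22. Maml3, a coactivator of NOTCH, was at 15.9, 11.2, 15 and 12.6 CPM in WT and at 18.3 to 30.2 CPM in HET (0.71 ± 0.19). Rbpj, the DNA-binding partner of NOTCH, was at 37.4 to 58 CPM in WT and at 32.6 to 39.2 CPM in HET (−0.31 ± 0.10). Adam10, the sheddase that cuts NOTCH receptors, differed by −0.36 ± 0.12.

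Fzd3, a WNT receptor that guides axons, was lower in all HET animals. It was at 99.4, 149, 95.7 and 100.2 CPM in WT and at 70.7 to 84.7 CPM in HET (median 75.3), a difference of −0.50 ± 0.11. The ligand genes Wnt3 and Wnt7a were higher, by 0.33 ± 0.13 and 0.28 ± 0.11, with overlapping groups. Kitl, which encodes the ligand of the KIT receptor, was at 59 to 88.3 CPM in WT and at 40.4 to 53.4 CPM in HET (−0.58 ± 0.15). Sox4 and Igfbpl1, both of young neurons, differed by 0.22 ± 0.09 and 0.40 ± 0.12. Neurod1 differed by −0.41 ± 0.17, and the mitotic genes Cenpf and Hmmr by −0.33 ± 0.13 and −0.34 ± 0.15.

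Projection neuron lists showed no common direction. Upper layer genes were higher in 8 and lower in 10 of 18 (median −0.04), deep layer genes higher in 7 and lower in 12 of 19 (−0.02), and cortical identity genes higher in 6 and lower in 11 of 17 (−0.10). With the striatum score in the fit, the upper layer and cortical identity medians turned to 0.14 and 0.08. Bhlhe22, a factor of upper layer neurons, was at 161, 178, 89.7 and 91.2 CPM in WT and at 67.5 to 95.3 CPM in HET (−0.66 ± 0.21), with the batch 1 WT animals at the top. Satb1, Etv1 and Fezf2, the last a determinant of subcerebral neurons, differed by −0.38 ± 0.13, −0.34 ± 0.12 and −0.31 ± 0.14. Cux1, of upper layers, and Foxp1 differed the other way, by 0.26 ± 0.12 and 0.31 ± 0.12. With the striatum score in the fit the differences of Bhlhe22 and Fezf2 were −0.20 and −0.10.

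Synaptic gene lists had medians near 0. Presynaptic genes were higher in 25 of 34 (median 0.07) and glutamatergic postsynaptic genes in 25 of 39 (0.03). Within them, Syt4, a vesicle protein of dense cores, was at 339, 409, 302 and 370.5 CPM in WT and at 211 to 323.8 CPM in HET (−0.43 ± 0.11). Cplx2, which clamps and promotes vesicle fusion, differed by 0.22 ± 0.08. Grin1, the obligatory NMDA receptor subunit, was at 125 to 163 CPM in WT and at 158 to 198 CPM in HET (0.26 ± 0.08), and the scaffold gene Homer1 differed by −0.30 ± 0.10.

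Channel genes showed no common direction. The sodium channel list had 6 higher and 8 lower of 14 (median −0.16), and no member had an unadjusted p under 0.05 with a higher level. Scn2a, the main axonal sodium channel of young excitatory neurons, was at 129, 180.0, 155 and 162 CPM in WT and at 68.1 to 128 CPM in HET (median 126, difference −0.41 ± 0.17). Scn3a, the embryonic form, was at 158, 196, 159.7 and 155 CPM in WT and at 101 to 147 CPM in HET (−0.34 ± 0.12). Neither gene overlapped between the groups, and the lowest WT and highest HET value of Scn2a lay side by side at 129 and 128 CPM. The calcium channel list had a median of 0.00 and the potassium channel list 0.04. Cacnb4 and Cacna2d1, auxiliary calcium channel subunits, differed by −0.38 ± 0.12 and −0.43 ± 0.16. The potassium channel genes Kcnj3 and Kcnk10 differed by −0.55 ± 0.16 and −0.39 ± 0.12, without overlap.

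Genes of glia and vessels were mostly at a higher level in HET, though none passed in edgeR. Microglial genes were higher in 21 of 22 (median 0.24), with 7 higher at an unadjusted p under 0.05 (9.25% of all genes) and 5 with all HET above all WT animals (2.09% of all genes). The complement genes C1qa, C1qb and C1qc, which microglia make, were higher in all HET animals than in all WT animals. C1qc was at 9.21, 9.36, 8.46 and 6.58 CPM in WT and at 10.5 to 13.8 CPM in HET (median 11.9, difference 0.51 ± 0.16). The differences of C1qa and C1qb were 0.46 ± 0.16 and 0.48 ± 0.16. Csf1r, the receptor on which microglia depend, was at 10.8 to 15.8 CPM in WT and at 16.9 to 19.7 CPM in HET (0.43 ± 0.15). The microglial median was 0.09 within batch 1 and 0.27 within batch 3.

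Astrocyte genes were higher in 19 of 23 (median 0.24), of which 7 were higher at an unadjusted p under 0.05, again against 9.25% of all genes. Aldh1l1, a folate enzyme that marks astrocytes, was at 75.8, 62.4, 74 and 48.5 CPM in WT and at 77.1 to 105 CPM in HET (0.53 ± 0.15), without overlap. The astrocyte median was 0.04 within batch 1 and 0.31 within batch 3. The oligodendrocyte lineage list had a median of 0.13 with 16 of 19 higher, and Cspg4, which marks precursors and pericytes, differed by 0.47 ± 0.16. Mural cell genes, of pericytes and vascular smooth muscle, were higher in 13 of 14 (median 0.36). Their score was 1.90 to 2.354 in WT, 2.41 to 2.72 in HET and 1.94 to 2.75 in HOM. Tagln and Higd1b differed by 0.81 ± 0.24 and 0.51 ± 0.18 without overlap. Endothelial genes were higher in 17 of 20, with a median of 0.10. Their scores were 3.31 to 3.38 in WT, 3.43 to 3.61 in HET and 3.33 to 3.66 in HOM. The medians of fibroblast and meningeal, erythroid and choroid plexus genes were 0.13, 0.10 and 0.08. The erythroid median was 0.32 within batch 1 and −0.03 within batch 3, and the choroid plexus median turned to −0.41 with the striatum score.

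Muscle and neighbouring tissue genes were also higher in HET. The skeletal and cardiac muscle list had 15 of 16 tested genes higher (median 0.44). Its scores were −0.27 to 0.27 in WT, 0.35 to 0.56 in HET and −0.29 to 0.32 in HOM. These genes were scarce in both groups, with a summed level of 48.5 to 81.4 CPM in WT and 57.6 to 84.6 CPM in HET, and 10 of the 26 listed genes were too low to test. Des, a muscle and pericyte filament gene, was at 0.436 to 0.622 CPM in WT and at 0.679 to 1.28 CPM in HET. Olfactory bulb genes were higher in 12 of 15 (median 0.39). Their scores were 2.12 to 2.31 in WT, 2.48 to 2.77 in HET and 2.04 to 2.72 in HOM. Th, the dopamine-synthesising enzyme, was at 0.236, 0.322, 1.47 and 1.66 CPM in WT and at 1.14 to 4.93 CPM in HET (1.80 ± 0.57). Trh, the thyrotropin-releasing hormone gene, differed by 1.05 ± 0.29. Thalamus and hypothalamus genes had a median of 0.28, with 13 of 18 higher, and hippocampal genes 0.18, with 9 of 13 higher. Gbx2, a thalamic homeobox gene, was at 0.0707, 0.147, 1.19 and 2.7 CPM in WT and at 1.02 to 5.58 CPM in HET, and Tcf7l2 differed by 1.57 ± 0.64. With the striatum score in the fit, the medians were 0.34 for muscle, 0.32 for olfactory bulb, 0.43 for mural, 0.21 for microglial, 0.15 for astrocyte and 0.04 for thalamic genes.

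**Figure D5:**
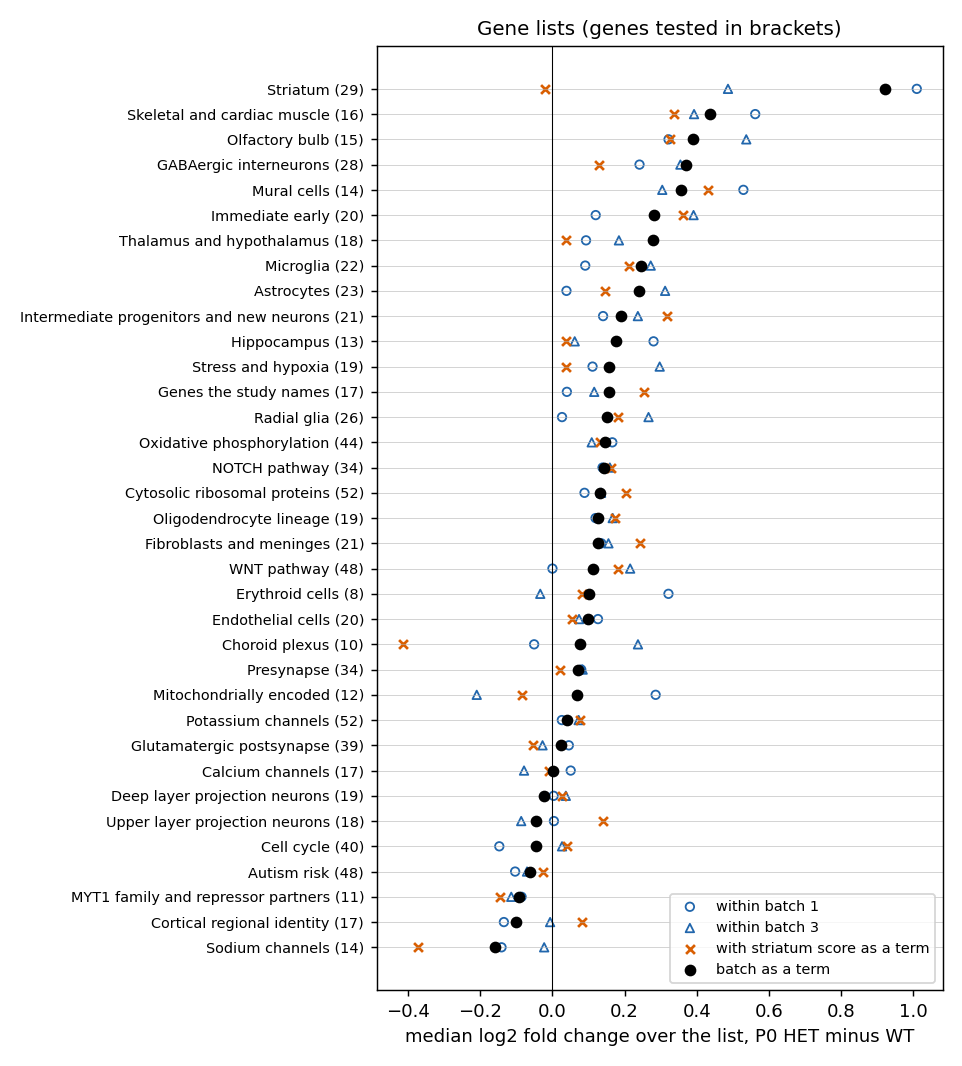
Median log2 difference of P0 HET against WT for 35 gene lists (number of genes tested in brackets), with batch as a term (filled circles), within batch 1 (open circles), within batch 3 (triangles) and with the striatum score as a further term (crosses). The striatum list moves from 0.92 to −0.02 when its score enters the fit, which follows from the score being the mean of these same genes. With the score in the fit, the medians of muscle, mural, olfactory bulb, immediate early and intermediate progenitor genes are above 0.3. Without it, those of immediate early and intermediate progenitor genes are 0.28 and 0.19.

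Energy and translation genes were slightly higher in nearly every case. All 44 oxidative phosphorylation genes were higher (median 0.15), 18 of them at an unadjusted p under 0.05, against 9.25% of all genes. All 52 cytosolic ribosomal protein genes were higher as well (0.13), 8 of them at such a p, a share not far above that of all genes. By score, 3 of 6 HET animals exceeded all WT animals for oxidative phosphorylation and 2 of 6 for ribosomal genes. For both lists, all WT and HET animals of batch 1 scored below those of batch 3. Uqcrc1, of respiratory complex III, was at 134, 130.1, 176 and 189 CPM in WT and at 173 to 212 CPM in HET (0.29 ± 0.06). Atp5d, of ATP synthase, was at 113, 104, 121 and 115 CPM in WT and at 125 to 168 CPM in HET (0.31 ± 0.08), without overlap. Cox8a and Uqcrq differed by 0.29 ± 0.08 and 0.31 ± 0.08, and Rpl14 and Rps9 by 0.23 ± 0.07 and 0.24 ± 0.08. Mitochondrially encoded genes had a median of 0.07, which was 0.29 within batch 1 and −0.21 within batch 3.

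These genes have short transcripts, and the difference between the groups varied with exon length. Among genes with a mean log2 CPM over 3, the shortest of 5 length classes had a median difference of 0.10 and the longest −0.08. The same classes differed by 0.06 and −0.09 within batch 1, and by 0.10 and −0.09 within batch 3. Per animal, the median of the shortest minus that of the longest class, relative to the WT mean, was −0.12, −0.18, 0.05 and 0.25 in WT. In HET it was 0.01 and 0.00 in batch 1 and 0.26 to 0.44 in batch 3. The long transcripts of Scn2a, Scn3a and Fzd3, which were lower in HET, belong to the longest class. That of Myt1l, which was higher in HET, belongs to it too. RNA quality values were not used here, and the part of RNA quality in these differences was not tested.

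Partners of MYT1L and genes tied to autism were examined by list. The list of the MYT1 family and repressor partners had 3 of 11 genes higher and a median of −0.09. Sin3a, the scaffold of the SIN3 complex, was at 66, 71.3, 63.5 and 62.2 CPM in WT and at 47.7 to 62.7 CPM in HET (−0.32 ± 0.11). Rcor1 and Rcor2 encode CoREST scaffolds and differed in opposite directions. Rcor1 was at 32.2, 51.6, 28.5 and 29.5 CPM in WT and at 15.8 to 29.6 CPM in HET (−0.56 ± 0.18). Rcor2 was at 52.5, 32.4, 61.4 and 52.8 CPM in WT and at 61.6 to 111 CPM in HET (0.57 ± 0.19). The autism risk list had 14 of 48 genes higher and 34 lower (median −0.06), with 4 higher and 5 lower at an unadjusted p under 0.05, shares near those of all genes (9.25% and 9.43%). Chd8 and Dscam differed by −0.08 ± 0.06 and 0.29 ± 0.09. The 17 genes that the study names had a median of 0.16, with 12 higher, and since the study chose them with these samples among others they are not independent evidence of a direction. Among them Tubb3, Sox2 and Reln differed by 0.22 ± 0.10, 0.33 ± 0.14 and 0.17 ± 0.10, and Prrx1 by −0.51 ± 0.19. Immediate early genes, which neuronal activity or handling induces, had a median of 0.28, with Egr1 at 7.72 to 14.7 CPM in WT and at 9.79 to 36.5 CPM in HET, and Arc at 0.75 ± 0.32. The stress and hypoxia list had a median of 0.16, which was 0.30 within batch 3 and 0.04 with the striatum score.

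The HET difference at P0 was then set against that at other ages, in fits over both ages with batch within age. Against E18.5, where the labels give cortex rather than prefrontal cortex, 0 of 19047 genes differed (percent called 0, 1926 at an unadjusted p under 0.05, 4 by DESeq2). Against P22, 0 of 19885 genes differed (percent called 0, 2754 at an unadjusted p under 0.05, 99 by DESeq2). The Myt1l difference was 0.47 at E18.5 and 0.33 at P22, and P0 differed from these by −0.05 ± 0.12 and 0.09 ± 0.10. Noxred1 differed by −2.13 ± 0.42 from E18.5 and by −2.16 ± 0.44 from P22, the smallest p against E18.5 among all genes (adjusted p = 0.316). The own differences of Noxred1 at those ages were 0.17 and 0.19, those of Kcna1 were 0.16 and 0.05, and those of Npy were −0.01 and 0.01. These genes were named for their small p at P0, so smaller differences at other ages can follow from that choice alone. The striatum list had a median of −0.04 at E18.5 and 0.20 at P22, against 0.92 at P0.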

How the data were processed

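Prefrontal cortex RNA of P0 mice was sequenced as stranded paired-end libraries. Per the labels and the study's methods, the authors aligned reads with STAR to mm10 and deposited raw counts per gene, with summed exon length (read here as a score in bases) beside them. The counter, annotation and strand setting are not given in the sources used here. The deposited normalised values and the authors' comparison columns were not used. Gene names and positions came with the deposited counts. The transcripts used to place the Myt1l deletion came from GENCODE vM21, and the genotyping primers from the study's supplement. The 2 libraries of an animal were summed; libraries of the same animal differed by a chi-square per gene of 1.28 to 1.34, and different animals by 7.59 to 21.8.

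Counts of all 16 P0 animals were scaled by TMM, filtered with filterByExpr and fitted in edgeR 4.0.16 (R 4.3.3) with batch and genotype, and HET was tested against WT by the quasi-likelihood F test with Benjamini-Hochberg adjustment (FDR under 0.05). CPM values are TMM-scaled. Differences between ages were tested over 32 animals (E18.5 and P0) and 28 animals (P0 and P22). DESeq2 1.42.0, limma voom 3.58.1 (added after seeing the data), other covariates, filters, batches and leaving out animals were alternatives. Scripts were tested on simulated data. The study's own covariate was sex.

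Named genes were the MYT1 family, genes the study names, the 10 smallest p, up to 4 genes of smallest p per list and the striatum list; a few of them are not reported here. The groups, members and lists were chosen with earlier results of these data known.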

Additional observations from a re-analysis of the deposited data

Results flagged for a closer look

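Of 266 groups of values examined with Dixon's test for 1 animal far from the rest of its group, 16 held such an animal, and chance alone would mark about 1 in 20 groups. HET animals are lettered a and b in batch 1 and c to f in batch 3. HET-f was the extreme one in 6 of them. In it Sstr2 was at 52.8 CPM where the other HET animals had 25.6 to 31.8 CPM, and Rcor2 at 111.05 CPM against 61.6 to 74.6 CPM. Scn2a was at 68.1 CPM in the same animal against 125 to 128 CPM, and the sodium channel score was 2.74 against 3.25 to 3.51. Its erythroid score was 3.77 against 3.14 to 3.28, and its oligodendrocyte lineage score was 3.14 against 3.46 to 3.64.

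WT-b stood apart for Fzd3, at 148.6 CPM against 95.7 to 100.2 CPM in the other WT animals. It was also apart for Scn3a (196 against 155 to 159.7 CPM), Cacnb4 (53.4 against 35 to 37.3 CPM), Cplx2 (590.3 against 677 to 692.9 CPM) and the oligodendrocyte lineage score (3.45 against 3.24 to 3.25).

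WT-d had the lowest C1qb level, 6.79 CPM against 9.11 to 9.64 CPM, and the lowest olfactory bulb score, 2.12 against 2.295 to 2.31. WT-a had a thalamus and hypothalamus score of 1.49 against 2.09 to 2.19. HET-b had a Sox2 level of 38.3 CPM against 27.8 to 29.8 CPM, and an endothelial score of 3.61 against 3.43 to 3.48.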

How the results depend on the processing

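No gene was called with sex in place of batch, batch and sex together, no covariate, only the 10 WT and HET animals, within batch 3, RLE size factors, single libraries, thinned counts, limma voom or an FDR under 0.1. DESeq2 called 436 genes, edgeR with no filter on low counts 1232, the striatum score 45 and batch 1 alone 1; the cause was not tested. Leaving out each of the 16 animals in turn gave 0 to 0 calls. The Myt1l difference kept its direction in all of these, from 0.38 to 0.46 with an animal left out, and passed with the striatum score (0.51), DESeq2 (0.42) and no filter (0.41). The striatum median ran from 0.65 to 1.01 with an animal left out and was −0.0191 with its own score in the fit. P0 differed from E18.5 for 4 genes by DESeq2 and 434 without the filter (0 to 0 with an animal left out), and from P22 for 99 and 565 genes (0 to 1, the 1 without HET-d).

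With the striatum score the sign turned for Drd2 (−0.31), Tac1 (−0.0853), Pdyn (−0.22), Ebf1 (−0.0202), Rxrg (−0.16), Six3 (−0.42), Tcf7l2 (−0.39) and Myt1 (−0.0289). Myt1 was also below 0 with sex (−0.0102), no covariate (−0.00966), no filter (−0.00111) and within batch 3 (−0.11), and ran from −0.0497 to 0.0757 with an animal left out. St18 was 0.24 within batch 3 and ran from −0.27 to 0.0571 with an animal left out. Wnt7a was −0.00284 within batch 1, and Hes1 was −0.0200 within batch 3.

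No paired analysis was possible because the replicate numbers in the labels mark 2 libraries of 1 animal.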
